A study of Mus musculus with 22 samples.

Results

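The transcripts described here encode 4 annexins (Anxa1, Anxa2, Anxa3, and Anxa5) and 5 S100 proteins (S100a6, S100a8, S100a9, S100a10, and S100a11), chosen by gene symbol from a kidney count table of 32858 genes. All 9 were listed, and all 9 passed the filter on low counts that left 17131 genes for testing. Bulk poly(A) RNA was sequenced from the kidneys of 22 male C57Bl6/J mice aged 8 to 10 weeks, with 1 library per mouse. The vehicle group (n = 5) received the carrier of dimethyl sulfoxide, cremophor, and saline. The KW6002 group (n = 6) received istradefylline, an antagonist of an adenosine receptor, intraperitoneally at 3 mg/kg every day from day -5 to day 7. The cisplatin group (n = 5) received 6 daily intraperitoneal injections of 3 mg/kg cisplatin, a platinum drug that damages DNA and injures the renal tubule, and the kidneys were taken 72 hours after the last one. The group given cisplatin plus KW6002 (n = 6) received both courses. The comparisons addressed what cisplatin changed in renal transcripts and whether KW6002 altered that change.

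Annexins are proteins that bind acidic phospholipids when calcium is present, and they take part in membrane repair, vesicle traffic, and the resolution of inflammation. S100 proteins are small calcium sensors with EF-hand motifs that work mostly as dimers, and several of them bind an annexin: S100A10 forms a stable complex with annexin A2, and S100A11 binds annexin A1. S100A8 and S100A9 form calprotectin, which is abundant in neutrophils and monocytes, whereas S100A6, or calcyclin, and annexin A2 have been described in injured and regenerating tubule epithelium.

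The libraries held 26471762 to 40510754 counts each. Proximal tubule markers (6 genes, such as the endocytic receptor Lrp2) summed to between 14032 and 15073 CPM (counts scaled to a common library size) in vehicle kidneys, to between 1427 and 2651 CPM in cisplatin kidneys, and to between 5318 and 8209 CPM in cotreated kidneys. Vehicle replicates 1 and 2 stood apart from the other 3 vehicle kidneys. Their summed CPM were 328 and 312 for 8 macrophage and monocyte markers, against 146 to 157 in the others, and 410 and 749 for 5 fat markers, against 50.3 to 119. KW6002 replicate 1 was likewise the highest of its group for both sums, at 379 and 342 CPM. It was kept when only these 2 vehicle kidneys were left out. Sample numbers in the labels fell into the 300s (3 vehicle and 3 KW6002 mice, vehicle replicates 1 and 2 among them) and the 500s (the other 16 mice), and every mouse given cisplatin was numbered in the 500s. For the transcripts described here, some fold changes against vehicle changed direction or test outcome without vehicle replicates 1 and 2. Their values without these kidneys are given. Ratios, correlations, marker sums and counts, and the values of other genes are given only with them. How far those rest on these kidneys was not tested. Nothing in the sources used here says what separates the number series.

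Levels between genes were compared as CPM per kilobase of merged exon. In vehicle kidneys S100a11 stood at 72.6 ± 4.26 (SD, n = 5) and Anxa5 at 69.6 ± 3.82 on this scale, and the ranges of this pair overlapped. S100a10 followed at 48.9 ± 3.27, then Anxa2 at 18.4 ± 0.346 and S100a6 at 10.4 ± 2.97. S100a9 (6.75 ± 3.59), Anxa1 (5.88 ± 2.36), Anxa3 (5.08 ± 0.272), and S100a8 (2.86 ± 2.28) made up the low end, where each gene overlapped its neighbours. In cisplatin kidneys (n = 5) the order was S100a11 (426 ± 53.1), S100a10 (326 ± 28.9), S100a6 (178 ± 17.6), Anxa5 (86.3 ± 3.57), Anxa2 (79.1 ± 7.97), Anxa3 (48.2 ± 8.28), Anxa1 (12.9 ± 0.675), S100a9 (4.68 ± 1.78), and S100a8 (2.31 ± 0.992). S100a11 overlapped S100a10, Anxa5 overlapped Anxa2, and S100a9 overlapped S100a8, and no other neighbours in that order did. The 9 transcripts together took 0.0322% ± 0.00204 of all counts in vehicle kidneys, 0.0314% ± 0.00234 with KW6002, 0.166% ± 0.0153 with cisplatin, and 0.0709% ± 0.0110 with both drugs.

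The 5 S100 genes lie on mouse chromosome 3 (mm10, annotation GENCODE M21). S100a6 spans chr3:90612882-90624181 on the plus strand, S100a8 spans chr3:90668978-90670035 on the plus strand, and S100a9 spans chr3:90692632-90695721 on the minus strand. S100a11 (chr3:93520488-93526287) and S100a10 (chr3:93555080-93564643) lie on the plus strand further along, 2825 kb beyond S100a9 and 28.8 kb from each other. Anxa5 lies far from them on the same chromosome (chr3:36448923-36475894, minus strand). The remaining annexins are on other chromosomes, with Anxa1 at chr19:20373428-20390944 (minus), Anxa2 at chr9:69453620-69491795 (plus), and Anxa3 at chr5:96793339-96845966 (plus). S100a6 is separated from S100a8 by 44.8 kb, and S100a8 from S100a9 by 22.6 kb. The genes that overlap Anxa1, Anxa2, and Anxa3 and are in the count table held 0 to 4 counts in any library.

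The 250 bases before the RefSeq start (GRCm38.p6) were given for 7 of the 9 genes. They are shown for the 3 genes below because Anxa2 and S100a11 carried the motif of the AP-1 factors, TGANTCA, and S100a6, the transcript with the largest fold change, did not. Capitals mark the motif, and the sequences run 5′ to 3′ on the gene's strand from chr9:69453433-69453682 (Anxa2), chr3:93520246-93520495 (S100a11), and chr3:90612644-90612893 (S100a6).
Anxa2: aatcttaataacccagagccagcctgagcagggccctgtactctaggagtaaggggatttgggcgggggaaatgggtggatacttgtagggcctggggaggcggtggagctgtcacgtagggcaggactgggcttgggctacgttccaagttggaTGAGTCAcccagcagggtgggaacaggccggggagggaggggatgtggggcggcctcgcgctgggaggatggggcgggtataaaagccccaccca
S100a11: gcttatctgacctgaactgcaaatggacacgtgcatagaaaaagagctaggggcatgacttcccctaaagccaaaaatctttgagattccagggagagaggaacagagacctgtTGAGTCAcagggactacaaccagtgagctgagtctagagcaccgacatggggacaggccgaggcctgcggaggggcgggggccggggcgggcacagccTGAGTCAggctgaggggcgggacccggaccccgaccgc
S100a6: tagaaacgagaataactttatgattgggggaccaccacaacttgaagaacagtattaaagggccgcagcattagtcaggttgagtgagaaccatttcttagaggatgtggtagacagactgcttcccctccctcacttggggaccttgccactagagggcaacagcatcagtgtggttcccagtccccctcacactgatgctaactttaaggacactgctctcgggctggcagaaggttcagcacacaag
The motif began 95 bases before the start in Anxa2 and 136 and 38 bases before it in S100a11, and 2 of the 7 promoters held it, against 6.75% of all 32851 promoters of the same length in the table. A TATA motif (TATAAA) was present in 3 of 7 (Anxa1, Anxa2, and S100a8; 12.4% of all promoters), a C/EBP motif (TTNNGNAA) in 3 of 7 (Anxa1, S100a8, and S100a9; 36.8%), and a STAT motif (TTCNNNGAA) in 0 of 7 (7.02%). Both strands were searched, and no match overlapped another motif. These matches describe letters only and were not tested for use.

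Cisplatin raised 7 of the 9 transcripts (adjusted p below 0.05), by 1.24-fold to 17.1-fold, and S100a8 and S100a9 did not pass the test. S100a6 rose the most, Anxa3 was next, and S100a10, S100a11, and Anxa2 followed with 4.31-fold to 6.66-fold increases. Anxa1 rose 2.20-fold and Anxa5 1.24-fold. Against this count of 7 higher and 0 lower stand 34.6% and 35.9% of all genes tested. The 9 genes are a part of their families and were chosen with earlier results of these data known. Counts over them therefore do not stand for the families. Counting as called only a change past 1 on the log2 scale whose adjusted p was below 0.01, 6 of 9 were called higher, against 12.1% of all genes, and 0 lower, against 12.1%. The median log2 fold change was 2.11 over the 9 genes and -0.01 over all genes. When only library size was scaled, the median of all genes moved to 0.20 and 62.6% of called genes were higher, against 50.01% here, while the same 6 of 9 members were called. In whole-kidney RNA, fewer cells of a type and less RNA per cell cannot be told apart.

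S100a6 stood at 13.5, 19.6, 11.9, 17.0, and 9.37 CPM in the 5 vehicle kidneys and at 271, 207, 251, 234, and 253 CPM in the 5 cisplatin kidneys. The lowest cisplatin kidney was thus far above the highest vehicle kidney, and the log2 fold change was 4.10 ± 0.19 (SE, adjusted p = 1.88e-14). S100a6 binds calcium and interacts with the ubiquitin ligase cofactor Cacybp. S100a10, the partner of annexin A2, was at 62.2, 59.7, 53.2, 63.3, and 58.2 CPM with vehicle and at 389, 401, 433, 414, and 339.7 CPM with cisplatin. The groups did not overlap, and the log2 fold change was 2.74 ± 0.09 (adjusted p = 4.35e-17). S100a11, a partner of annexin A1, was at 38.1, 35.9, 40.5, 35.9, and 35.1 CPM with vehicle and at 228, 238, 228, 224, and 170.0 CPM with cisplatin. The kidney at 170.0 CPM, the lowest with cisplatin, was still above every vehicle kidney, and the log2 fold change was 2.55 ± 0.11 (adjusted p = 5.25e-15).

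Among the annexins, Anxa3 moved the most. It was at 18.6, 20.1, 18.2, 17.5, and 18.0 CPM with vehicle and at 217, 156, 191, 174, and 139 CPM with cisplatin, and the log2 fold change was 3.25 ± 0.12 (adjusted p = 5.00e-16). Cisplatin replicates 1 and 5 marked the ends of a wide range, all of it above the vehicle kidneys. Anxa2, which binds plasminogen and tissue plasminogen activator at the cell surface together with S100A10, was nearly constant in vehicle kidneys at 69.4, 68.5, 69.9, 66.6, and 68.0 CPM and stood at 336, 272, 315, 289, and 264 CPM with cisplatin. Its log2 fold change was 2.11 ± 0.11 (adjusted p = 7.47e-14), again without overlap. Anxa1, a glucocorticoid-induced protein whose N-terminal peptide acts on formyl peptide receptors, was at 26.1, 22.7, 11.6, 14.1, and 10.9996 CPM with vehicle and at 37.4, 39.5, 38.1, 38.6, and 34.3 CPM with cisplatin. The first 2 vehicle kidneys were the highest of their group, and the log2 fold change of 1.14 ± 0.19 (adjusted p = 1.69e-05) became 1.62 with these 2 left out and 1.58 within the 500s. Anxa5, the phosphatidylserine-binding protein used to stain dying cells, had 123, 131, 113, 124, and 127 CPM with vehicle and 161, 157, 154, 146, and 148 CPM with cisplatin. The groups were close but did not overlap, and the log2 fold change of 0.31 ± 0.07 passed the test (adjusted p = 6.22e-04) without reaching the size needed for a call. With only library size scaled it was 0.53. In all, 7 of 9 genes were higher in cisplatin kidneys without overlap, against 27.4% of all genes, and 0 were lower without overlap, against 27.9%.

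**Figure D1:**
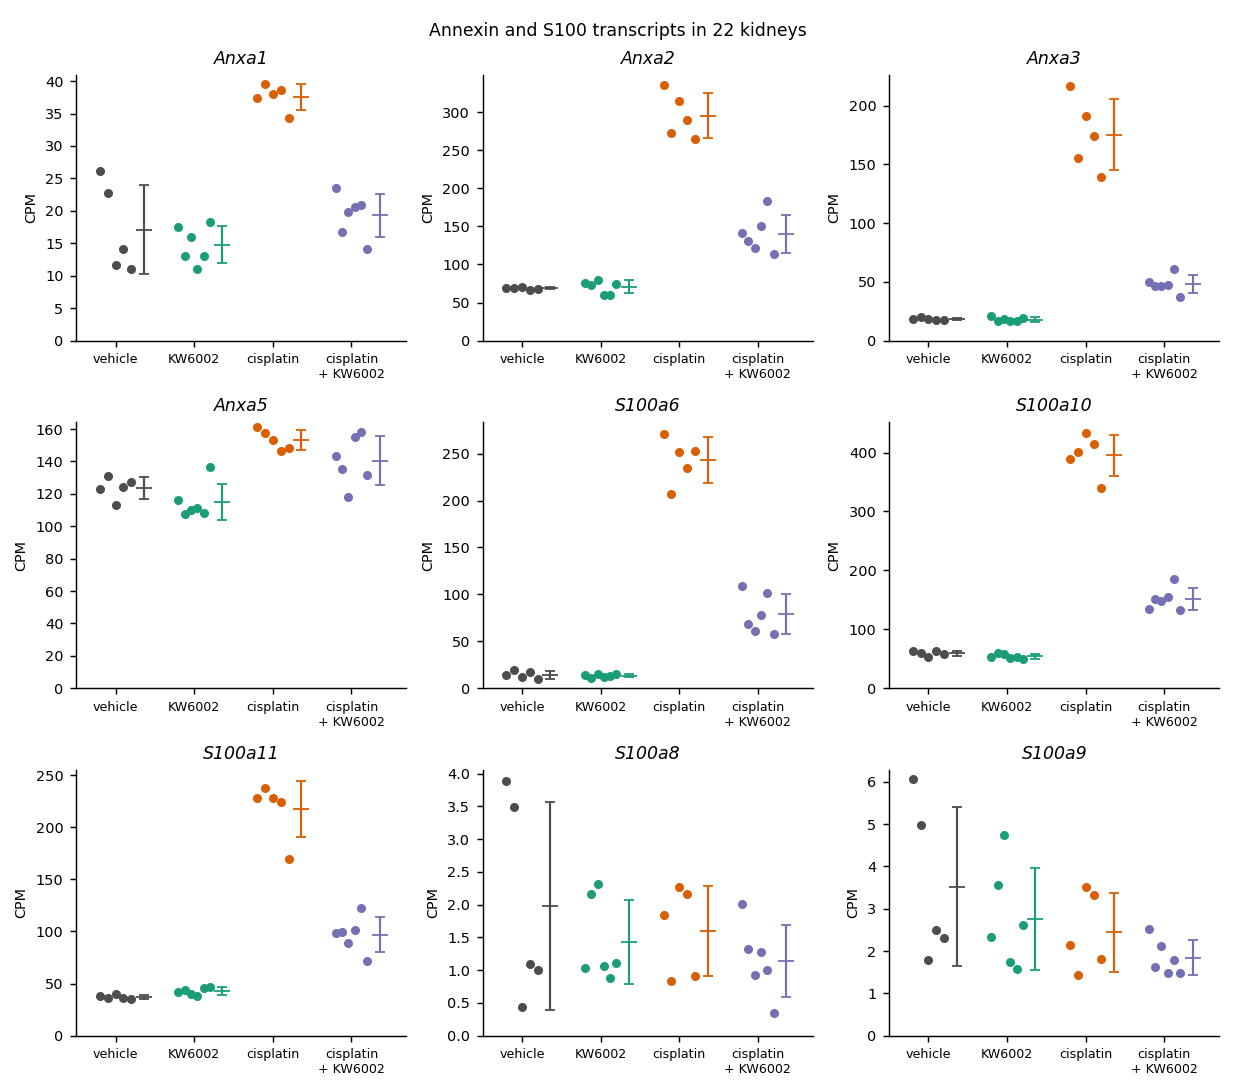
CPM (y axis, from 0) of each gene in each of the 22 kidneys (points), by group, with the mean and SD of the group at its right. The 5 cisplatin kidneys sit above all vehicle kidneys for 7 genes, and cotreated kidneys lie between for Anxa2, Anxa3, S100a6, S100a10, and S100a11, whereas the groups overlap for S100a8 and S100a9.

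S100a8 and S100a9 did not pass the test in this comparison. S100a8 was at 3.89, 3.49, 0.437, 1.09, and 1.01 CPM with vehicle and at 1.84, 0.8288, 2.27, 2.17, and 0.906 CPM with cisplatin, which came from 13 to 120 counts a library. Its log2 difference of -0.30 had a 95% interval from -1.28 to 0.68 (adjusted p = 0.583). S100a9 was at 6.06, 4.97, 1.78, 2.501, and 2.31 CPM with vehicle and at 2.13, 1.43, 3.52, 3.32, and 1.81 CPM with cisplatin, with an interval from -1.21 to 0.16 (adjusted p = 0.160). Vehicle replicates 1 and 2 were the highest of all 22 kidneys for both genes. Without them the log2 differences were 0.92 for S100a8 (adjusted p = 0.0932) and 0.15 for S100a9 (adjusted p = 0.700), and within the 500s they were 0.60 and 0.02, so that the sign of both turned while neither passed the test.

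Neutrophil markers are given beside these values because both genes are abundant in neutrophils. The 10 markers summed to 2.59 to 8.71 CPM in vehicle kidneys, with 8.71 and 6.82 in replicates 1 and 2, to 2.45 to 6.51 CPM with KW6002, to 4.29 to 7.81 CPM with cisplatin, and to 2.71 to 3.90 CPM with both drugs. Only 5 of the 10 (Ltf, Csf3r, Cxcr2, Mmp8, and Retnlg) passed the filter. Ly6g, Mpo, Elane, Camp, and Ngp, which define granules and surface of the lineage, had at most 6 counts in any library. Of the 5 tested, 3 were higher and 0 lower with cisplatin, against 34.6% and 35.9% of all genes. In cotreated against cisplatin kidneys 0 were higher and 4 lower, against 28.6% and 27.2% of all genes. The part of neutrophil RNA in the S100a8 and S100a9 values was not tested.

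Adding KW6002 to cisplatin lowered 6 of the 9 transcripts relative to cisplatin alone (adjusted p below 0.05), against 27.2% of all genes lower, and raised 0, against 28.6%. Anxa3 fell 3.65-fold, S100a6 3.07-fold, S100a10 2.61-fold, S100a11 2.24-fold, Anxa2 2.10-fold, and Anxa1 1.95-fold. Of the 9, 5 were called lower, against 5.66% of all genes tested, and 0 were called higher, against 4.65%. The median log2 fold change was -1.07 over the 9 genes and 0.01 over all genes. This comparison shares the 5 cisplatin kidneys with the previous one, so the members' values in the 2 are not independent.

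Anxa3 ranged from 37.0 to 60.9 CPM in the 6 cotreated kidneys, with a median of 47.1, and the log2 fold change was -1.87 ± 0.11 (adjusted p = 4.98e-12). S100a6 ranged from 57.7 to 108 CPM with a median of 73.1, a log2 fold change of -1.62 ± 0.16 (adjusted p = 2.05e-08). Every cotreated kidney lay between the vehicle and cisplatin groups for both. S100a10 ranged from 133 to 185 CPM (median 149.5), a log2 fold change of -1.39 ± 0.08 (adjusted p = 4.71e-12). S100a11 ranged from 71.7 to 122 CPM (median 98.8), a log2 fold change of -1.17 ± 0.10 (adjusted p = 1.96e-09). Anxa2 ranged from 114 to 184 CPM (median 136), a log2 fold change of -1.07 ± 0.10 (adjusted p = 6.39e-09). Among the cotreated kidneys, replicate 6 was lowest for these 5 genes and for Anxa1, and replicate 5 was highest for Anxa2, Anxa3, S100a10, and S100a11. No cotreated kidney reached the lowest cisplatin kidney for any of these 5 genes. Anxa1 ranged from 14.2 to 23.5 CPM (median 20.2), and its log2 fold change of -0.96 ± 0.18 (adjusted p = 1.06e-04) passed the test but missed the size for a call. With the mean log2 level of fat markers as a covariate this value became -0.55 (adjusted p = 0.0317). Fat markers summed to 207 to 429 CPM in cisplatin kidneys and 6.05 to 247 CPM in cotreated kidneys. In all, 6 of 9 genes were lower without overlap, against 18.5% of all genes, and 0 were higher without overlap, against 19.3%.

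The other 3 genes did not pass the test between cotreated and cisplatin kidneys. Anxa5 ranged from 118 to 158 CPM (median 139), a log2 difference of -0.13 (95% interval -0.27 to 0.02, adjusted p = 0.125), which passed without cotreated replicate 5 (-0.16, adjusted p = 0.0493). S100a8 ranged from 0.344 to 2.01 CPM (median 1.14, interval -1.45 to 0.47, adjusted p = 0.387), and S100a9 from 1.48 to 2.53 CPM (median 1.71, interval -1.08 to 0.26, adjusted p = 0.294).

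Cotreated kidneys stayed above vehicle for 5 genes, with fitted folds of 2.05 to 5.57. These 2 groups are the same kidneys as in the comparisons above. S100a6 remained 5.57-fold above vehicle, with a log2 fold change of 2.48 ± 0.18 (adjusted p = 9.87e-11). S100a11 was 2.61-fold higher (log2 1.39 ± 0.10, adjusted p = 1.83e-10), Anxa3 2.60-fold (1.38 ± 0.11, adjusted p = 5.70e-10), S100a10 2.55-fold (1.35 ± 0.08, adjusted p = 4.91e-12), and Anxa2 2.05-fold (1.03 ± 0.10, adjusted p = 1.29e-08). Without cotreated replicate 5 the Anxa2 value was 0.94 (adjusted p = 9.84e-09), under the size for a call. These 5 of 9 were called higher, against 5.83% of all genes tested, and 0 were called lower, against 7.59%. None of the 5 overlapped the vehicle kidneys, against 18.9% of all genes higher without overlap and 18.5% lower. At an adjusted p below 0.05 alone, 6 of 9 were higher, against 29.8%, and 1 lower, against 29.9%. When only library size was scaled, the median of all genes moved from 0.00 to 0.16 and 56.5% of called genes were higher, against 43.4% here. Anxa5 was 0.18 higher on the log2 scale (adjusted p = 0.0275), with overlapping groups. It no longer passed 0.05 without vehicle replicate 3 (adjusted p = 0.0815), without cotreated replicate 4 (0.0711), without cotreated replicate 5 (0.0769), and within the 500s (0.204). Anxa1 did not pass the test (0.18 ± 0.19, adjusted p = 0.430) but did so without vehicle replicates 1 and 2 (0.66, adjusted p = 9.64e-04) and within the 500s (0.62, adjusted p = 0.00803). Both of these fits leave out the 2 vehicle kidneys with the most Anxa1. That raises the difference by itself, so these values show how far it rests on them and are no separate test. S100a9 was lower in cotreated than in vehicle kidneys (-0.94 ± 0.32, adjusted p = 0.0162), with overlapping groups. S100a9 no longer passed 0.05 without vehicle replicate 1 (-0.64, adjusted p = 0.0928), without vehicle replicate 2 (-0.79, adjusted p = 0.0531), without both (-0.26, adjusted p = 0.520), and within the 500s (-0.39, adjusted p = 0.310). Without vehicle replicate 3, S100a9 was instead called lower (-1.11, adjusted p = 0.00573). S100a8 was not past the threshold (-0.79 ± 0.47, adjusted p = 0.150) but passed it without vehicle replicate 3 (-1.05, adjusted p = 0.0459).

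**Figure D2:**
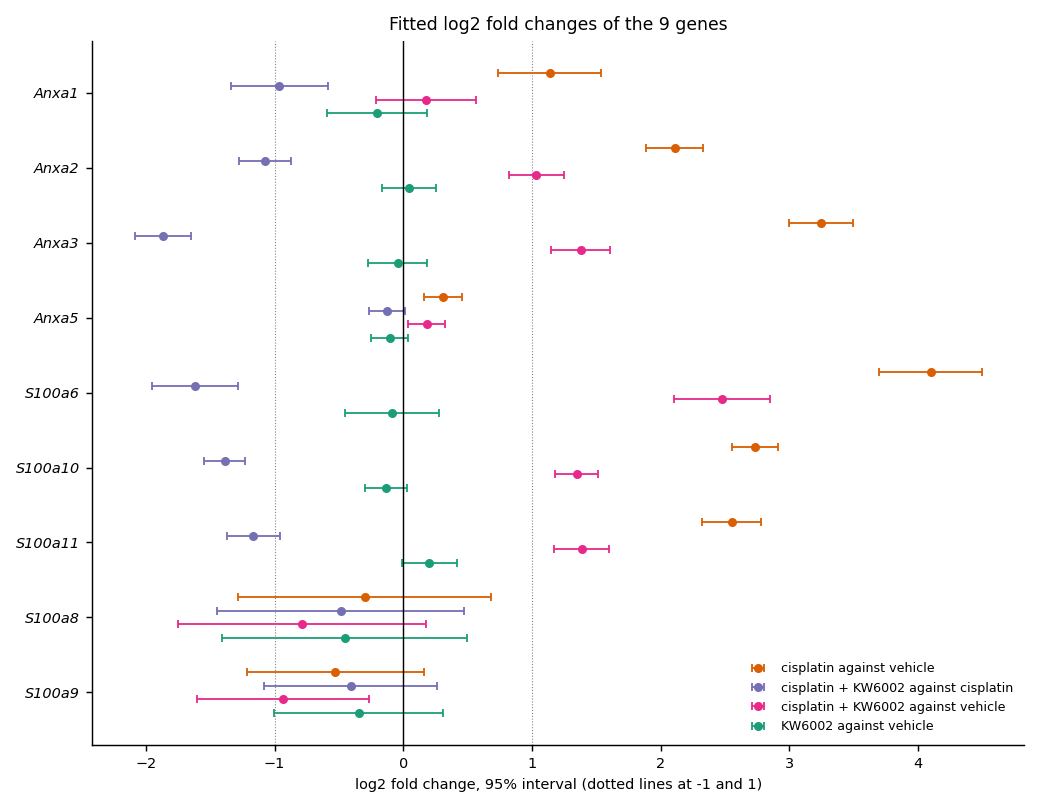
Fitted log2 fold change (x axis) of each gene with its 95% interval in 4 comparisons, which share groups and are not independent. For Anxa2, Anxa3, S100a6, S100a10, and S100a11 the estimates lie beyond 2 for cisplatin against vehicle, below -1 for cotreated against cisplatin, and above 1 for cotreated against vehicle. The intervals of Anxa2 cross these limits (1.88 to 2.33, -1.28 to -0.87, and 0.82 to 1.25), as does that of S100a11 against cisplatin (-1.37 to -0.96). The intervals for S100a8 and S100a9 are wide.

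KW6002 alone moved none of the 9 transcripts past the threshold. In the 6 KW6002 kidneys S100a6 ranged from 10.8 to 15.3 CPM (median 13.5), Anxa3 from 16.3 to 20.8 CPM (median 17.5), Anxa2 from 59.9 to 80.1 CPM (median 73.7), S100a10 from 49.1 to 60.1 CPM (median 52.4), and S100a11 from 37.6 to 46.9 CPM (median 43.0). Anxa1 ranged from 10.99 to 18.3 CPM (median 14.5), Anxa5 from 108 to 137 CPM (median 110.5), S100a8 from 0.879 to 2.32 CPM (median 1.08), and S100a9 from 1.58 to 4.74 CPM (median 2.47). Each of the 9 genes overlapped the vehicle group, where 0.391% of all genes were higher and 0.992% lower without overlap. The log2 differences from vehicle lay between -0.46 (S100a8) and 0.20 (S100a11), with adjusted p from 0.462 to 0.916. The 95% interval was -0.01 to 0.41 for S100a11, -0.30 to 0.03 for S100a10, -0.45 to 0.28 for S100a6, and -1.41 to 0.50 for S100a8. With edgeR 0% of all genes were called in this comparison (0 genes, although 1930 had an unadjusted p below 0.05), and DESeq2 also called 0 of the 9 members. Within the 300s and within the 500s, 0 of 9 were called as well.

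The effect of KW6002 in cisplatin-treated mice was next set against its effect in mice without cisplatin, as the difference between the 2 log2 fold changes. Of the 9 genes, 6 differed (adjusted p below 0.05) toward a lower level with cisplatin, against 19.9% of all genes, and 0 toward a higher level, against 22.8%. Of these, 5 were called lower, against 4.33%, and 0 of 9 were called higher, against 4.24%. The differences were -1.82 ± 0.15 for Anxa3 (adjusted p = 7.76e-09), -1.53 ± 0.24 for S100a6 (adjusted p = 2.31e-05), -1.37 ± 0.14 for S100a11 (adjusted p = 1.36e-07), -1.25 ± 0.11 for S100a10 (adjusted p = 1.51e-08), and -1.12 ± 0.14 for Anxa2 (adjusted p = 1.81e-06). Anxa1 differed by -0.75 ± 0.26 (adjusted p = 0.0236). It no longer passed 0.05 without vehicle replicate 3 (-0.64, adjusted p = 0.0502) and with fat markers as a covariate (-0.57, adjusted p = 0.0528). Anxa5 (-0.02, 95% interval -0.22 to 0.18), S100a8 (-0.03, interval -1.37 to 1.31), and S100a9 (-0.06, interval -1.002 to 0.88) did not pass. For the S100a8 and S100a9 pair these intervals are too wide to show that the effects were alike.

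Anxa2 and S100a10 encode the partners of a complex, and their ratio was taken within each kidney as CPM per kilobase. This measure was chosen after the levels, which already held the ratio, were seen, so its p-values are descriptive. The ratio of Anxa2 to S100a10 was 0.362, 0.373, 0.427, 0.342, and 0.380 in vehicle kidneys and 0.281, 0.2205, 0.236, 0.227, and 0.253 in cisplatin kidneys. All cisplatin kidneys were below all vehicle kidneys, S100a10 having risen 6.66-fold and Anxa2 4.31-fold, with means of 0.243 ± 0.0240 and 0.377 ± 0.0314 (two-sided exact permutation test, p = 0.00794, adjusted over 8 tests 0.0346). Cotreated kidneys ranged from 0.266 to 0.342 with a mean of 0.301 ± 0.0301, higher than with cisplatin (exact permutation p = 0.0130, adjusted 0.0346) and lower than with vehicle (exact permutation p = 0.00866, adjusted 0.0346), with overlap at the edges of both. KW6002 alone gave 0.425 ± 0.0515, which did not differ from vehicle past the threshold (exact permutation p = 0.0996, adjusted 0.199).

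**Figure D3:**
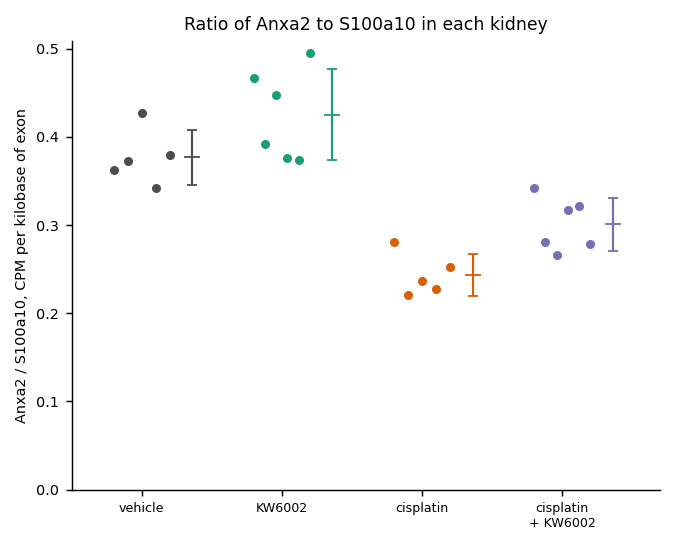
Ratio of Anxa2 to S100a10 (y axis, CPM per kilobase of exon, from 0) in each kidney (points), with the mean and SD of each group. The cisplatin kidneys lie between 0.2205 and 0.281 and the vehicle kidneys between 0.342 and 0.427, and the cotreated kidneys lie between 0.266 and 0.342, overlapping the cisplatin range at its top and meeting the lowest vehicle kidney.

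The ratio of S100a8 to S100a9, the calprotectin subunits, averaged 0.370 ± 0.137 with vehicle, 0.393 ± 0.0606 with KW6002, 0.487 ± 0.101 with cisplatin, and 0.463 ± 0.189 with both drugs. None of the 4 comparisons of this ratio passed the threshold (two-sided exact permutation tests, adjusted p from 0.241 to 0.844). Log2 CPM of the pair was correlated across the 22 kidneys (Pearson's r = 0.83), and also after the group means were taken out (r = 0.86). These correlations are descriptions over kidneys that share treatments and number series, and are given only with vehicle replicates 1 and 2 included. With the other 7 genes S100a8 and S100a9 had r between -0.28 and 0.40, whereas those 7 among themselves had r between 0.76 and 0.99, a range set largely by the difference between the groups, since it was 0.19 to 0.80 for deviations from group means. On those deviations the pair had r between 0.02 and 0.70 with the 7, so that the ranges largely overlapped. Of the other genes, Anxa1 came closest to the pair in its deviations from group means, with r = 0.70 to S100a8 and 0.67 to S100a9. Beside this, vehicle replicates 1 and 2, the highest in their group for all 3 genes, were also highest in it for macrophage and monocyte markers. KW6002 replicate 1 had the highest sum of those markers (379 CPM). That kidney had 1.04 CPM of S100a8 and 2.33 of S100a9, below the KW6002 medians of 1.08 and 2.47. Its Anxa1 was 17.5 CPM, above the KW6002 median of 14.5. The 8 macrophage and monocyte markers summed to 201 to 246 CPM with cisplatin and to 96.1 to 167 CPM with both drugs. With cisplatin 3 of 8 were higher and 3 lower than with vehicle, against 34.6% and 35.9% of all genes. With both drugs 1 of 8 was higher and 3 lower than with cisplatin, against 28.6% and 27.2% of all genes. The part of these markers in the Anxa1 values was not tested.

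**Figure D4:**
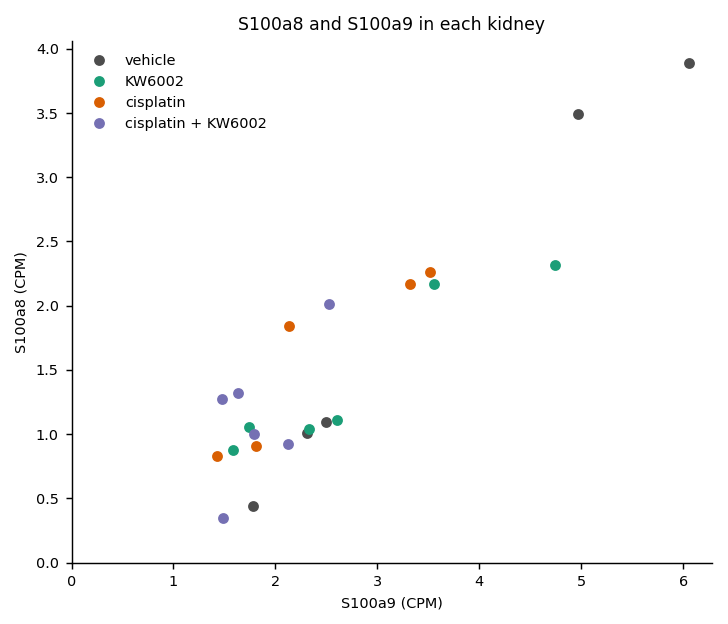
S100a8 (y axis) against S100a9 (x axis) in CPM, 1 point per kidney, coloured by group. Both genes are highest in vehicle replicates 1 and 2 (3.89 and 3.49 CPM of S100a8), and the 4 groups overlap.

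The transcripts most like each gene across the 22 kidneys were listed by Pearson's r of log2 CPM, as a description. Anxa3 was most like another annexin, Anxa4 (r = 0.99), ahead of the formin Inf2 (0.99) and the actin nucleator subunit Arpc1b (0.99). S100a6 was most like the simple keratin Krt18 (0.99), followed by the integrin subunit Itgb4 (0.99) and the mitochondrial carrier Slc25a24 (0.99). Anxa2 was most like Serpine2 (0.99), a serine protease inhibitor, then Vopp1 (0.99) and the chloride channel protein Clic1 (0.99). S100a10 was most like Pmm1 (0.995) and Clic1 (0.99), and S100a11 most like Vopp1 (0.99), the tetraspanin Cd151 (0.99), and Ell (0.99). Anxa5 was closest to the smooth muscle gene Tagln (0.92), then Impdh2 (0.92) and Gmpr (0.90), and Anxa1 to Glipr2 (0.95), Cd300lf (0.95), and Adamts2 (0.94). S100a8 had lower values, with Cdon (0.79), Trim30b (0.72), and the neutrophil chemokine receptor Cxcr2 (0.71), as did S100a9, with Naaa (0.78), Slfn4 (0.78), and Phkg1 (0.78).

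Of 7 other annexins tested, 3 were higher and 1 lower with cisplatin (adjusted p below 0.05), against 34.6% and 35.9% of all genes, and their median log2 fold change was 0.18. Anxa4, a membrane-binding annexin of epithelia, rose from 95.1 ± 1.77 to 246 ± 16.1 CPM (log2 1.37 ± 0.05, adjusted p = 9.74e-16) and fell to 134 ± 9.45 CPM with both drugs (-0.87 ± 0.05 against cisplatin, adjusted p = 5.48e-12). Anxa8 rose from 1.13 ± 0.721 to 3.21 ± 1.06 CPM with overlapping groups (1.53 ± 0.51, adjusted p = 0.0101). Anxa13, an annexin found in polarized epithelia, went the other way: it fell from 8.21 ± 1.08 to 1.502 ± 0.471 CPM with cisplatin (-2.45 ± 0.19, adjusted p = 6.89e-11) and stood at 5.16 ± 1.13 CPM with both drugs, above cisplatin (1.78 ± 0.18, adjusted p = 3.02e-08). Between cotreated and cisplatin kidneys 1 of 7 was higher and 1 lower, against 28.6% and 27.2% of all genes. With KW6002 alone 0 of 7 passed, against 0.0175% of all genes.

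Of 11 other S100 genes 9 were tested, and 5 were higher and 2 lower with cisplatin, against 34.6% and 35.9% of all genes, with a median of 0.57. S100a14 rose from 0.817 ± 0.313 to 6.17 ± 1.89 CPM (log2 2.92 ± 0.25, adjusted p = 5.87e-10) and was at 3.16 ± 0.614 CPM with both drugs (-0.96 ± 0.21 against cisplatin, adjusted p = 4.58e-04). S100a16 rose from 37.9 ± 1.76 to 63.7 ± 2.62 CPM (0.75 ± 0.06, adjusted p = 7.52e-11). S100g, the calcium-binding calbindin of the distal tubule, was at 283 ± 42.9 CPM with vehicle and 224 ± 45.5 CPM with cisplatin (-0.33 ± 0.13, adjusted p = 0.0254), and lower still with both drugs at 172 ± 20.7 CPM (-0.39 ± 0.12 against cisplatin, adjusted p = 0.0112). Between cotreated and cisplatin kidneys 0 of 9 were higher and 5 lower, against 28.6% and 27.2% of all genes.

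Of 15 receptors and binding partners tested, 10 were higher and 2 lower with cisplatin, against 34.6% and 35.9% of all genes, with a median of 0.83. Plaur, the urokinase receptor, rose from 6.61 ± 1.67 to 50.4 ± 3.74 CPM (2.92 ± 0.23, adjusted p = 1.65e-10), and Ahnak, a giant scaffold protein that binds S100A10, rose from 155 ± 15.1 to 493 ± 41.4 CPM (1.67 ± 0.12, adjusted p = 1.24e-11). Ager, the receptor for advanced glycation end products and for several S100 proteins, rose from 1.97 ± 0.340 to 6.65 ± 1.32 CPM (1.75 ± 0.16, adjusted p = 1.18e-09). Against cisplatin, cotreated kidneys were lower for Ahnak (-1.01 ± 0.11, adjusted p = 5.26e-08), Plaur (-0.67 ± 0.20, adjusted p = 0.00717), and Ager (-0.44 ± 0.14, adjusted p = 0.0109). There 9 of 15 partners were lower and 2 higher, against 27.2% and 28.6% of all genes. With KW6002 alone 0 of 9 S100 genes and 0 of 15 partners passed, against 0.0175% of all genes. Beside these gene groups, 5 fibroblast markers summed to 188 to 323 CPM with vehicle, 690 to 884 CPM with cisplatin (5 of 5 higher), and 348 to 566 CPM with both drugs (4 of 5 lower than with cisplatin). The tubular injury markers Lcn2 and Havcr1 summed to 5.29 to 7.02 CPM with vehicle, 1126 to 2136 CPM with cisplatin, and 299 to 653 CPM with both drugs. Thick ascending limb markers (3 genes) summed to 4534 to 7569 CPM with vehicle and 1964 to 2280 CPM with cisplatin, and 3 of 3 were lower. With both drugs they summed to 2293 to 4137 CPM, and 2 of 3 were higher than with cisplatin. Collecting duct markers did not move one way: 2 of 4 were higher, Aqp2 by 2.66-fold, and 1 lower with cisplatin. The shares of all genes given above stand beside these marker counts too. Red cell markers (5 genes) summed to 65.9 to 408 CPM with vehicle and to 0.0266 to 0.201 CPM with cisplatin. With both drugs they summed to 0.320 to 0.655 CPM, and 0 of 5 passed against cisplatin. The part of these shifts in the annexin and S100 values was not tested.

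**Figure D5:**
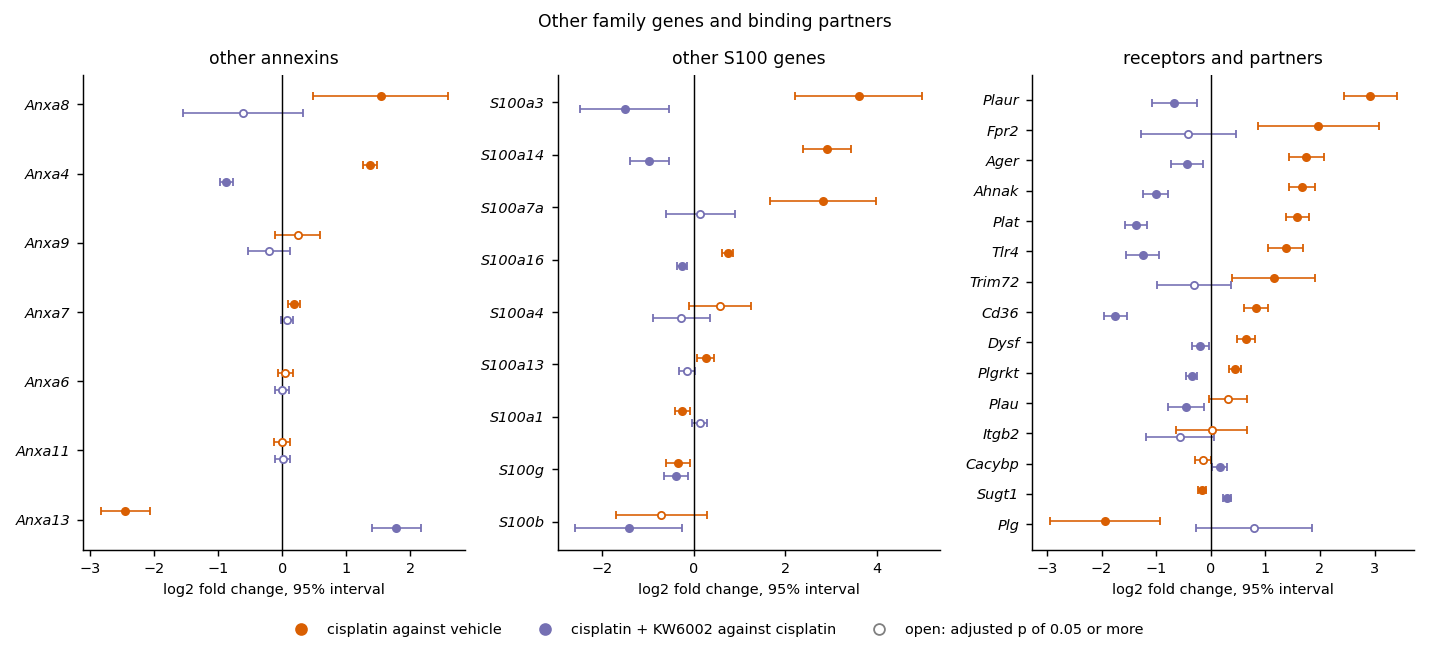
Log2 fold change (x axis) with 95% interval of 7 other annexins, 9 other S100 genes, and 15 receptors and partners, for cisplatin against vehicle and for cotreated against cisplatin. Filled points passed an adjusted p of 0.05, and Anxa13 is the tested annexin that is lower with cisplatin and higher again with both drugs.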

How the data were processed

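RNA-Seq libraries (TruSeq Stranded mRNA) were read as single ends on an Illumina HiSeq by the authors, mapped to mm10 with STAR, and counted with HTSeq 0.6.1p1 in union mode from uniquely aligned reads (tools and build also in the submitters' processing notes, with bcl2fastq 2.17.1.14). Whether strand was used in counting is not given in the sources used here. The deposited values are counts, whole reads per gene and library that the authors had not normalized, and another 66 columns not matched to a sample were not used. Samples were grouped by their titles. Symbols and positions came from GENCODE M21, and 32824 of 32858 genes had a symbol.

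Genes were kept by filterByExpr (a minimum of 10 counts at the median library size in 5 libraries, 15 in all), which held 99.9% of counts. The test was edgeR 4.0.16 (R 4.3.3) with TMM scaling, 1 mean per group, no covariate, and the quasi-likelihood F test, adjusted by Benjamini-Hochberg over 17131 genes. Genes past 1 on the log2 scale with an adjusted p below 0.01 were called, and a single gene was read at 0.05. CPM were scaled by TMM, and correlations used log2 CPM with a prior count of 2. Median depth was 32721214.5 counts. Intervals are 95% confidence intervals of the fitted log2 fold change, based on the spread between mice with 1 library each. No libraries were identical. The fit was tested on simulated counts of cisplatin against vehicle, where 200 of 200 changed genes among 16768 were recovered and 15 of 16568 unchanged genes passed. There every gene shared the common dispersion, and far fewer genes were changed than in the real data. The changed genes were well counted and given large fixed folds. The result therefore does not cover few counts or small changes, as in S100a8, S100a9, and Anxa5.

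The members, the lists of other annexins (8, without Anxa10 in the table used), other S100 genes (11), partners (17, of which 16 were listed), and cell type markers, and the tests were chosen with earlier results of these data known. Named genes outside the members are the 3 of each list that cisplatin changed most (adjusted p below 0.05, mean log2 CPM not below 0), and the 3 most correlated with each member, of which 1 is not reported here. Alternatives were RLE and library-size scaling, DESeq2 1.42.0, other filters, a replicate block, the label number series, a fat marker covariate, a test of changes beyond 1 on the log2 scale, and each library left out. The fits without vehicle replicates 1 and 2 or with the 300s alone, and the ratios, were added after the data were seen.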

Additional observations from a re-analysis of the deposited data

Results flagged for a closer look

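Of 36 groups of CPM values, 2 held a kidney far from the others by Dixon's criterion, which chance meets in about 1 group in 20. KW6002 replicate 6 had 136.6 CPM of Anxa5, against 107.8 to 116.5 in the other 5 KW6002 kidneys. Cisplatin replicate 5 had 170.0 CPM of S100a11, against 224 to 238 in the other 4 cisplatin kidneys, and it was also the lowest of its group for Anxa1, Anxa2, Anxa3, and S100a10. It was not low for S100a6, at 253 CPM against 207 to 271 CPM in the other 4. In the same kidney, proximal tubule markers summed to 2651 CPM, against 1427 to 1792 CPM in the other cisplatin kidneys, and the tubular injury markers Lcn2 and Havcr1 to 1126 CPM, against 1857 to 2136 CPM. Their part in the value was not tested.

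The effect of KW6002 differed between mice with and without cisplatin for 6 genes by the interaction term in edgeR. The log2 differences were -0.75 for Anxa1, -1.12 for Anxa2, -1.82 for Anxa3, -1.53 for S100a6, -1.25 for S100a10, and -1.37 for S100a11, each lower with cisplatin. For these 6 genes all 6 cotreated kidneys were below all 5 cisplatin kidneys, and the KW6002 and vehicle kidneys overlapped.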

How the results depend on the processing

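The number of members called stayed at 6, 5, 0, 5, and 5 (cisplatin against vehicle, cotreated against cisplatin, KW6002 against vehicle, cotreated against vehicle, and the KW6002 effect with cisplatin set against that without) under RLE scaling, DESeq2, the replicate block, the label series or fat markers as a covariate, and both other filters. They were 6, 6, 0, 5, and 5 with library-size scaling, and came to 6, 5, 0, 5, and 6 within the 500s and without vehicle replicates 1 and 2. Leaving out 1 library at a time gave 6 to 6, 5 to 6, 0 to 0, 4 to 6, and 5 to 5. The 4 came without cotreated replicate 5, where Anxa2 was 0.94 above vehicle on the log2 scale, and the 6 without vehicle replicate 3, where S100a9 was called lower. Testing for changes beyond 1 on the log2 scale lowered the count for cisplatin against vehicle to 5 (without Anxa1), for cotreated against cisplatin to 3 (Anxa3, S100a6, and S100a10), for cotreated against vehicle to 4 (without Anxa2), and for the difference between KW6002 effects to 1 (Anxa3). That test asks for evidence that the change exceeds 1, not only for an estimate past it. The shares of all genes given earlier belong to the main fit and its calls. None is given here for this test or the other settings, so these counts describe the members only. For cisplatin against vehicle, 4137 of all genes were called in the main fit and 4352 with library-size scaling. Over single genes, 958 of the values with 1 library left out and 462 of the others kept their direction and side of the threshold. The direction changed in 45, in none of which either fit had an adjusted p below 0.05.

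For cisplatin against vehicle, S100a8 turned to 0.44 with the label number series as a covariate, 0.60 within the 500s, and 0.92 without vehicle replicates 1 and 2, and S100a9 to 0.0255, 0.0164, and 0.15. Leaving out 1 library at a time gave S100a8 values of -0.56 to 0.11. For KW6002 against vehicle, the values within the 500s were 0.17 for Anxa1, -0.0507 for Anxa2, and 0.0155 for S100a6. With fat markers they were 0.0158 for Anxa1 and 0.0663 for S100a6. Without vehicle replicates 1 and 2, but with KW6002 replicate 1 kept, they were 0.28 for Anxa1, 0.00173 for Anxa3, 0.0756 for S100a6, 0.77 for S100a8, and 0.33 for S100a9. With 1 library left out, Anxa1 ranged from -0.33 to 0.00196 and S100a6 from -0.21 to 0.0520. For cotreated against vehicle, S100a8 was 0.12 within the 500s and 0.43 without vehicle replicates 1 and 2. For the difference between KW6002 effects, fat markers gave 0.00636 for Anxa5, 0.0871 for S100a8, and 0.0604 for S100a9, and leaving out 1 library gave -0.0589 to 0.0347, -0.44 to 0.23, and -0.35 to 0.16. The cause was not tested.

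Of the single-gene results at 0.05, the replicate block took out that of Anxa5 for cotreated against vehicle (0.16, adjusted p = 0.0519) and changed no other. The 31 pairs of mice with the same replicate number had correlations of deviations from group means between -0.175 and 0.405 (median 0.00846), and 7 exceeded 0.1. Pairs with different numbers were not compared, so these values cannot settle whether replicate numbers pair the mice. With the label series as a covariate, Anxa5 (0.14, adjusted p = 0.138) and S100a9 (-0.38, adjusted p = 0.330) no longer passed for cotreated against vehicle. With fat markers S100a9 did not pass there (-0.60, adjusted p = 0.227). Fat markers also brought Anxa1 past the threshold there (0.58, adjusted p = 0.0209), and library-size scaling brought Anxa5 past it for cotreated against cisplatin (-0.19, adjusted p = 0.0378). Depth limits S100a8, with 12 to 120 counts a library, and S100a9, with 45 to 187.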
